A study of Homo sapiens with 2 samples.

Results

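The matrix metalloproteinase genes that lie side by side on the long arm of human chromosome 11, in band 11q22, were followed in SAS and eSAS cells. The 9 genes MMP1, MMP3, MMP7, MMP8, MMP10, MMP12, MMP13, MMP20 and MMP27 were taken by their gene name on the array, out of 30482 gene and transcript names. They were read by 10 of 41000 probes and 19 of 43376 probe spots. The set was chosen by the difference in MMP1 signal between these same arrays, which was known to be far lower in eSAS cells, so the MMP1 difference is given as a description and supports nothing. SAS cells are an established squamous carcinoma line from a human tongue tumor. eSAS cells are the population left after the fifth round in which large spheroids of SAS cells were held back on a removable mesh, the Spheroid Catch, and taken on. Both carried no further treatment in the labels, were grown in DMEM with fetal bovine serum, and gave total RNA to 1 one-colour array each. eSAS is 1 selected population, and the intermediate populations and other selected lines were not analysed here.

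Matrix metalloproteinases are zinc-dependent endopeptidases that are made as inactive precursors, mostly secreted, and switched on when a propeptide is removed. The cluster holds collagenases, which cut fibrillar collagen (MMP1, MMP8 and MMP13), the stromelysins MMP3 and MMP10, which cut proteoglycans and other matrix proteins and can activate other members of the family, matrilysin (MMP7), macrophage metalloelastase (MMP12), the tooth enamel protease MMP20 and MMP27. In squamous tumors MMP1, MMP3 and MMP10 are made by carcinoma cells and by stromal cells, and AP-1, a dimer of FOS and JUN family proteins, is a well-known activator of several promoters of the cluster.

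Promoter entries in RefSeq (GRCh38.p14) matched 5 of the 9 genes, namely MMP7, MMP8, MMP10, MMP20 and MMP27. Each entry spans 250 bases before to 50 bases after the start of transcription and was searched on both strands for the AP-1 site TGAGTCA, read as TGACTCA from the opposite strand, and for the TATA box TATAAA, read as TTTATA from the opposite strand. The motifs do not overlap each other. The AP-1 site was found in 1 of the 5, MMP7, starting 67 bases before its start, and in 4.95% of 35116 promoters. The TATA box letters, at any distance within the entry, were found in 4 of the 5 and in 11.5% of all promoters. They began 30 bases before the start in MMP7, 31 in MMP10, 72 in MMP20 and 110 in MMP8. The last 120 bases before the start are shown for MMP7, which was measured in both cell populations, and for MMP10, the gene next to MMP1 whose signal was at background in both. Capitals mark the AP-1 site and the TATA box, and both sequences are on the minus strand, at chr11:102530748-102530867 for MMP7 and chr11:102780629-102780748 for MMP10.
MMP7: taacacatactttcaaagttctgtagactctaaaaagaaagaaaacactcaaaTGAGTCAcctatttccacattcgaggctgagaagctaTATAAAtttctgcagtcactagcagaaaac
MMP10: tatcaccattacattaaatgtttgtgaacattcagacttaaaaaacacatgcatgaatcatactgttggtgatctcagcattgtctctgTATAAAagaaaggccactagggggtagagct
Both windows hold a TATA box at almost the same distance from the start, and the AP-1 letters are in the MMP7 window only. A match of letters is a description and says nothing of binding in these cells.

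Of the 43376 probe spots per array, the scanner software marked 69.4% for SAS and 67.5% for eSAS as well above background, and none as saturated. The processed signal, a linear intensity with background and spatial trends removed by the software, was taken as log2 relative to the 75th percentile of each array, 1242 for SAS and 1196 for eSAS. The dimmest probe signals so marked were 12.8 for SAS and 15.2 for eSAS. A fold of a probe that passed this limit in 1 population only is a lower bound, written as at least, where the dimmer signal lay below the limit. For MMP1 the eSAS signal lay above it, so its fold is the measured ratio. With 1 array per population no test between the cells was possible, no p-value is given, and the number of arrays limits the precision. Spots of 1 probe differed in their log2 difference between the arrays with a pooled SD of 0.080 over 211 probes, which is technical spread and leaves out the variation between cultures. On the SAS array 183 of 194 non-uniform spots lay in rows 450 to 510, so a value that rests on these rows alone is named as such. Of 10 squamous epithelial markers 10 were well above background on both arrays, 9 of them with a log2 difference below 0 and a median of -0.51, and KRT14, a basal keratin, was lower in eSAS by 95.4-fold at one probe (8749 in SAS and 88.3 in eSAS) and by 2.35-fold at another (3136 and 1286), so its probes disagree on the size.

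Of the 9 genes, MMP1, MMP3 and MMP7 were well above background in SAS cells, and MMP3 and MMP7 in eSAS cells. Of all probes, 68.4% passed this limit for SAS and 66.6% for eSAS. The other 6 genes, MMP8, MMP10, MMP12, MMP13, MMP20 and MMP27, passed on neither array, as did 30.3% of all probes. At least 2-fold lower in eSAS was 1 gene, MMP1, a call met by 1.97% of the 28439 probes well above background on at least 1 array. At least 2-fold higher were 0 of the 9 genes, against 1.83% of those probes. Only MMP1, MMP3 and MMP7 could be called in either direction. Since the set was chosen for MMP1, nothing is read from its count of lower genes.

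**Figure D1:**
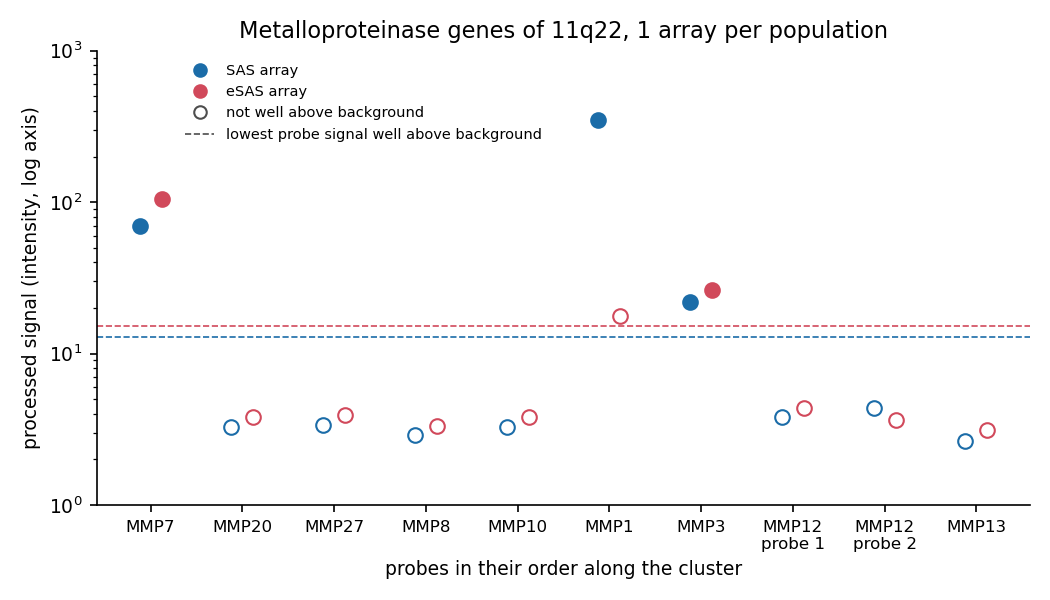
Processed signal (log axis) of the 10 probes in their order along the chromosome for SAS (blue) and eSAS (red), 1 array each; the MMP1 point is the geometric mean of its 9 unmarked spots, filled points are well above background, and dashed lines are the lowest probe signals that were (12.8 and 15.2). Points are to be compared within a probe only: MMP1 fell from 351 to 17.6 while MMP7 and MMP3 were slightly higher in eSAS and the other 7 probes have open points for both.

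MMP1, interstitial collagenase, starts the cleavage of native fibrillar collagen. Its probe lies on the minus strand at 102165907 to 102165966 of chromosome 11 (hg18) and was spotted 10 times on each array. In SAS cells the processed signal of these spots, from the top to the bottom row of the array, was 343, 348, 361, 348, 350, 366, 382, 320, 3.24 and 345. In eSAS cells the same spots gave 19.4, 17.4, 23.5, 13.5, 19.9, 17.3, 18.7, 17.7, 17.1 and 13.3. Thus 9 of the 10 SAS spots were far above every eSAS spot, and 1 SAS spot, in row 463, was below all of them.

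The low SAS spot was marked by the software as an outlier among its replicate spots. Its background-subtracted signal was -3.78, a level reached by 83 of 153 negative control spots, and it lies within rows 450 to 510. On its own it gave a log2 difference of 2.45, the opposite direction to the rest. It was left out of the values that follow, and with it kept the fold was 12.1 in place of 19.2.

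Over the 9 unmarked spots the SAS signal was 352 ± 17.1 (SD, n = 9 spots of 1 array) and the eSAS signal was 17.9 ± 3.15 (SD, n = 9 spots of 1 array). Among these technical repeats of 1 probe the lowest SAS spot was 13.1-fold above the highest eSAS spot after scaling. The share of other repeated probes whose spots were apart was not computed. The eSAS signal was well above background at 4 of the 9 spots, which is not more than 50% of them, so the probe did not pass in eSAS. MMP1 was 19.2-fold lower in eSAS (log2 difference -4.26 ± 0.25, SD over spots). The mean eSAS signal of 17.6 lay above the limit of 15.2, so the limit was not applied. The fold is therefore the measured ratio and not a lower bound, with the spread of the spots on both sides of it. Single spots ranged from 14.8-fold to 24.9-fold, and the 4 spots well above background on both arrays gave 17.8-fold (log2 -4.15 ± 0.21). The 7 unmarked spots outside rows 450 to 510 gave 18.8-fold and the 2 inside them 20.9-fold, so the difference was as large without these rows.

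A remaining MMP1 signal was seen in eSAS cells. All 10 eSAS spots were positive and significant against background by the software's criterion. Only 3 or 4 of 153 negative control spots were as bright as each of them. The relative spread of the 9 spots was 17.6% for eSAS and 4.86% for SAS, so the eSAS level is known less well. The size of the fold depends on how the background is treated, and its direction changed under the normexp correction of all spots. With no background correction MMP1 was 5.65-fold lower. Under the normexp correction, which is a model of signal plus background fitted to all spots, the direction was reversed. The log2 difference was then 0.64, beside a shift of the median of all probes to 0.53. With spots of marked local background left out of that fit, MMP1 was 4.78-fold lower. The median of all probes was then -0.0088.

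**Figure D2:**
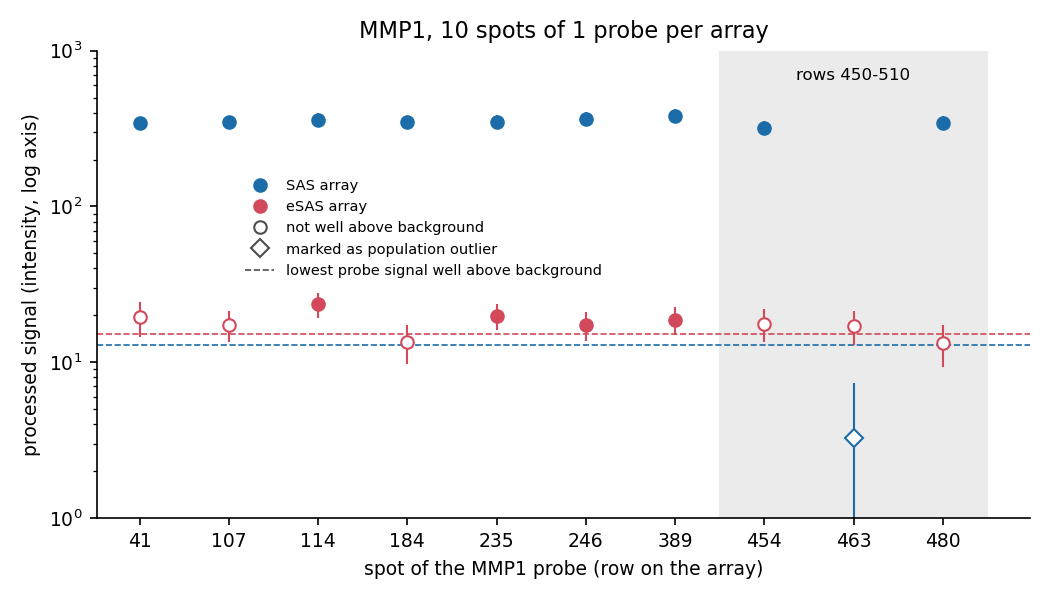
Processed signal (log axis) of the 10 MMP1 spots in order of their row on the array, SAS in blue and eSAS in red; bars are the error the scanner software gives for each spot, filled symbols are well above background, the diamond is the spot marked as an outlier, and the shaded rows are 450 to 510. The 9 unmarked SAS spots lie between 320 and 382 and all 10 eSAS spots between 13.3 and 23.5.

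Among all probes well above background on at least 1 array, 2 had a lower difference than MMP1, a KRT14 probe and THC2564562, and 0.0246% (7 of 28439) were at least 10-fold lower. The 5 probes nearest to MMP1 in log2 difference, among those well above background in SAS, were the transcript ENST00000311208 (14.6-fold lower in eSAS), the chemokine receptor ACKR3 (12.6-fold lower), the annexin ANXA10 (12.4-fold lower), ESPNL (10.8-fold lower) and the transcript THC2564562 (at least 36.5-fold lower). Likeness here is over 2 arrays only. Each of these 5 probes had 1 spot, while MMP1 had 10. None of the 5 lies on chromosome 11, going by the positions given on the array.

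**Figure D3:**
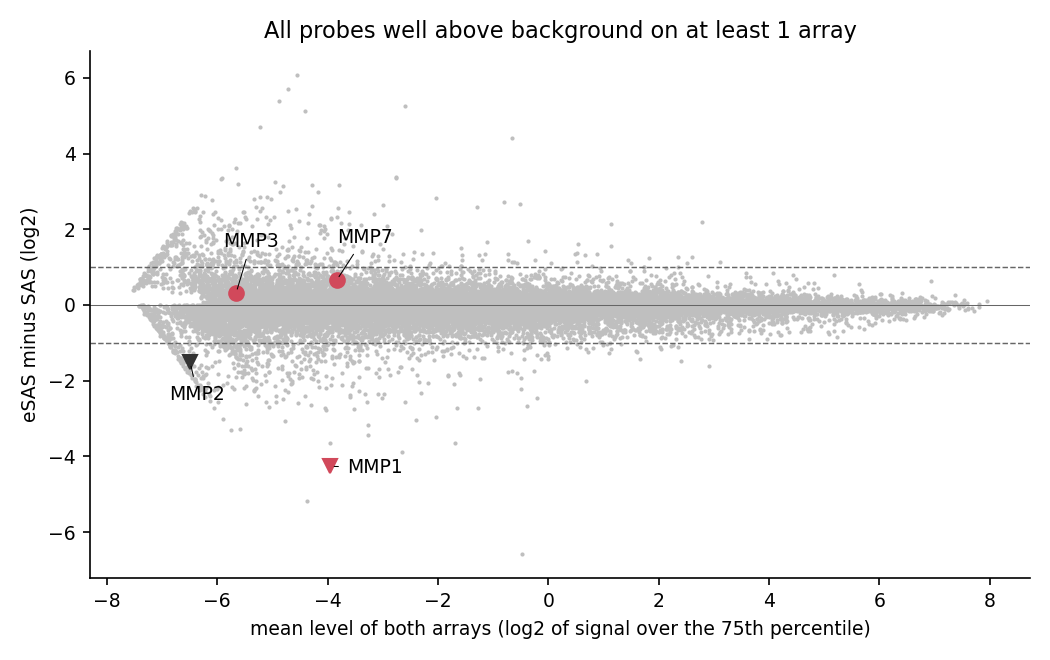
Log2 difference of eSAS minus SAS against the mean log2 level of both arrays, each relative to the 75th percentile. The probes are the 28439 well above background on at least 1 array. Triangles are named genes well above background on the SAS array only, and dashed lines are 2-fold. MMP1 lies at -4.26, apart from the body of probes, MMP7 at 0.66 and MMP3 at 0.32 lie within the 2-fold lines, and MMP2, a gelatinase outside the cluster, is shown at its bound.

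MMP7, matrilysin, is a small protease without the hemopexin-like domain and is made mainly by epithelial and carcinoma cells. Its single spot, at 101899239 to 101899298 of chromosome 11 (hg18), had a processed signal of 69.4 in SAS and 105 in eSAS, with software errors of 7.48 and 11.04. MMP7 was thus 1.58-fold higher in eSAS (log2 difference 0.66), in the opposite direction to MMP1. Probes of like brightness that were spotted repeatedly, 26 in all, had an SD of 0.14 between their spots, so the difference was larger than this technical spread. Of probes that passed the limit in both populations, 3.09% were at least 1.5-fold higher in eSAS. The 8 spots around it had a median log2 difference of -0.05. A difference between cultures of this size cannot be judged from 1 array each.

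MMP3, stromelysin 1, cuts proteoglycans and can complete the activation of MMP1. Its probe lies at 102211904 to 102211963, 46.0 kb from the MMP1 probe. The single spot had a processed signal of 22.1 in SAS and 26.4 in eSAS, with software errors of 3.61 and 4.29. The 1.24-fold difference (log2 0.32) compares with an SD between spots of 0.26 for 9 repeated probes of like brightness, so the levels are close and lie near the limit of measurement. As bright were 2 of 153 negative control spots for SAS and 3 for eSAS. The MMP3 signal did not fall with that of its neighbour MMP1.

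The gene on the other side of MMP1 could not be compared between the populations. The MMP10 probe, for stromelysin 2, at 102146615 to 102146674 and 19.3 kb from the MMP1 probe, had a processed signal of 3.26 in SAS and 3.80 in eSAS. Its spot lies in rows 450 to 510. The other collagenases of the cluster were at the same kind of level. MMP8, the neutrophil collagenase, gave 2.88 and 3.34 (102088944 to 102089003), and MMP13, collagenase 3, gave 2.65 and 3.13 (102320236 to 102320295). MMP1 was therefore the only collagenase of the cluster with a signal well above background in either population.

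MMP12, whose product degrades elastin, had a pair of adjacent probes. One gave 4.36 in SAS and 3.61 in eSAS (102238804 to 102238863), and the other 3.78 and 4.34 (102238723 to 102238782). The order of the arrays differs between these probes, and both lie below the limit on each array. The first was positive and significant on the SAS array by the software's weaker criterion, where 6 of 153 negative control spots were as bright. MMP20, which acts in forming enamel, gave 3.28 and 3.83, and MMP27 gave 3.37 and 3.95. The MMP20 and MMP27 probes span 1672 and 924 bases of hg18 (101953314 to 101954985 and 102068980 to 102069903) and so cross an intron. For all 7 probes of these 6 genes the processed signal is at or near the small value that the software sets at background, so the SAS and eSAS numbers have no order and no fold is given. Their transcripts were not detectable at this sensitivity, which is no sign of absence.

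**Figure D4:**
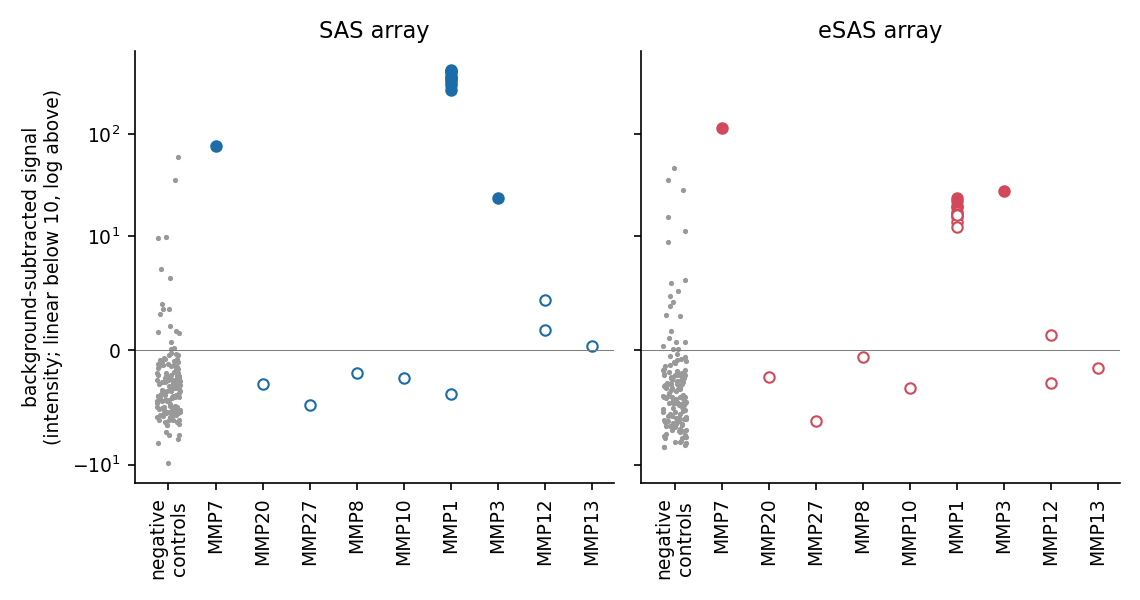
Background-subtracted signal (linear below 10, log above) of 153 negative control spots in grey and of every spot of the 9 genes for SAS (left) and eSAS (right); filled points are well above background. MMP7 and the 9 unmarked MMP1 spots of SAS lie above all negative controls, MMP3 and the MMP1 spots of eSAS lie above all but 2 to 4 of them, and the other genes lie among them.

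The strand of all 10 probes is minus. In the RefSeq gene table (GRCh38.p14) the transcribed pseudogene WTAPP1 overlaps MMP1 and part of MMP3, and its part in their signals was not tested.

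Genes on either side of the cluster were also read, at distances that were not computed. The list of 8 held YAP1, BIRC2, BIRC3 and TMEM123 on one side and DCUN1D5, DYNC2H1, PDGFD and CASP4 on the other. Of these, 7 were measured on both arrays, with a median log2 difference of 0.08 and a range from -0.23 to 0.74, beside -0.0012 for 19476 genes measured on both. At least 2-fold apart were 0 of the 7, while 2.14% of all genes with a difference or a bound were at least 2-fold lower and 1.99% at least 2-fold higher. CASP4, an inflammatory caspase, went from 11625 to 18603 at one probe and from 12157 to 19598 at the other, the highest difference of the list. BIRC3, an inhibitor of apoptosis, went from 65.3 to 97.0 (log2 0.63), and YAP1, the Hippo pathway coactivator, was near 0 at both probes (-0.10 and -0.16). No gene of the list came near the MMP1 difference, and PDGFD, whose spot lies in rows 450 to 510, was well above background on neither array.

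Of 9 AP-1 subunits 8 were measured on both arrays, with a median of 0.04 and 0 at least 2-fold apart. JUN, spotted 10 times, had a mean processed signal of 30043 in SAS and 16651 in eSAS and was 1.74-fold lower (log2 -0.80), the lowest of the list. FOS, at 2968 and 3483, was the highest (log2 0.28), and FOSL1 was 3125 and 3013 at one of its probes. The list was thus split, with 4 genes above and 4 below 0. Of 10 ETS and RUNX factors, which bind next to AP-1 in promoters of the family, 9 were measured on both arrays with a median of -0.06. ETV1 was well above background in eSAS only and at least 2.12-fold higher there, with 8.34 in SAS and 26.2 in eSAS at 1 spot, while its second probe was below the limit on both arrays. ETS2 gave 12333 and 12213 at its brightest probe. The RUNX2 probes did not go one way: -0.52 and -0.69 at a pair of them, and at least 3.18-fold higher in eSAS at another.

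Of 6 inhibitors of the family 6 were measured on both arrays, with a median of -0.35. A2M, a plasma protease inhibitor that traps active proteases, went from 172 in SAS to 3514 in eSAS at 1 spot, 21.2-fold higher, and was the only gene of the list at least 2-fold apart. The other 5 lay below 0. TIMP2 gave 13495 and 12315 (log2 -0.08), TIMP1 was at -0.25 and TIMP3 at -0.45, and TIMP4 was lowest at -0.83, with 403 and 219 at a single spot that lies in rows 450 to 510. Without these rows TIMP4 drops out, RECK at -0.50 is the lowest and the median is -0.25. Activators and partners of the precursors, 10 of 10 measured, had a median of -0.03 and 0 at least 2-fold apart. PLAU, the urokinase that starts plasmin formation, went from 15461 to 9550 over 10 spots (log2 -0.64), and its receptor PLAUR from 560 to 706 (log2 0.39). Of 4 interstitial collagens, the substrates of MMP1, 0 were measured on both arrays, and COL1A1 was well above background in SAS only, at 15.1 against 4.90 over 8 spots, 2 of them in rows 450 to 510, with no bound above 1.

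Outside the cluster 14 further metalloproteinase genes were on the array. Of these 7 were measured on both arrays, with a median of 0.15 and a range from -0.39 (MMP9) to 0.55 (MMP25). MMP14, the membrane-type activator, gave 2777 and 2515. MMP2, gelatinase A, was the only one at least 2-fold lower in eSAS: its 8 spots had a lowest, median and highest signal of 39.1, 46.8 and 49.1 in SAS, all well above background, and of 3.14, 3.85 and 7.02 in eSAS, with 0 of 8 well above background. These are repeat spots of 1 probe on each array, so their separation describes technical spread only. MMP2 was at least 2.85-fold lower, a bound set by the limit of the eSAS array. In the cluster 1 of 9 genes and outside it 1 of 14 genes was at least 2-fold lower. Of these, 6 of the 9 and 4 of the 14 were well above background on neither array and could not be called. Whether the shares differ was not tested.

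**Figure D5:**
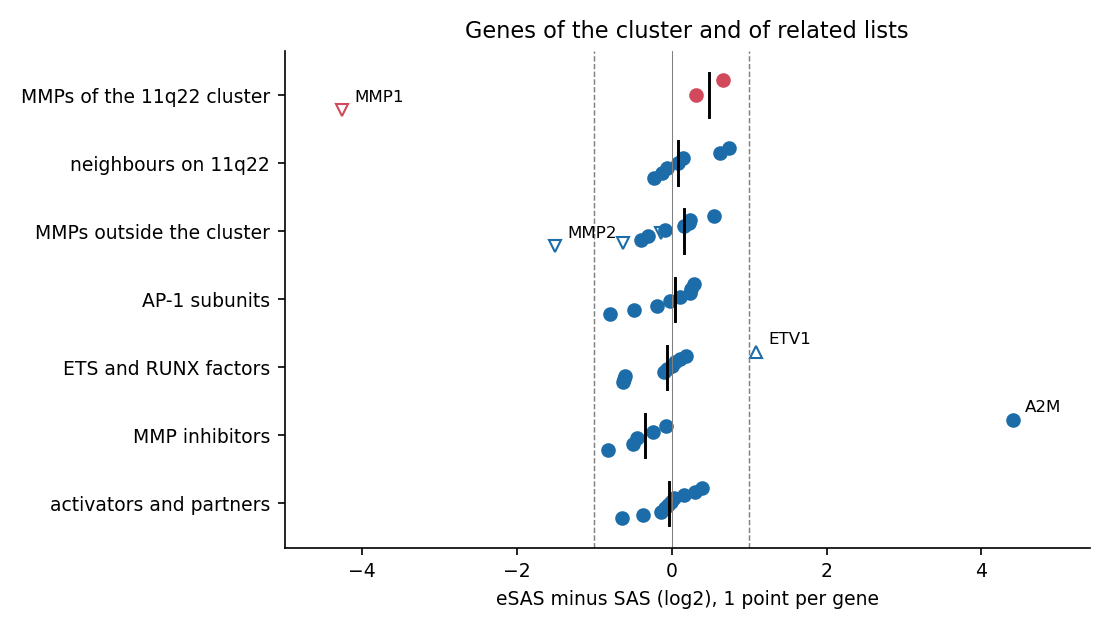
Log2 difference of eSAS minus SAS for genes of the cluster and of 6 lists, 1 point per gene with a difference or a bound. Each point is the mean over the gene's probes measured on both arrays, where there are any. Of the cluster only MMP1, MMP3 and MMP7 are drawn. Open triangles are genes well above background on 1 array only. Their values are bounds where the dimmer signal lay below the limit, which for MMP1 it did not. Black bars are medians of measured genes and dashed lines are 2-fold. MMP1 and A2M lie far from the other genes, which keep mostly within the 2-fold lines.

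In tissue, stromal and blood cells also make metalloproteinases of this cluster, and their markers are given beside MMP1. Both populations here are cultures of the SAS line, so a marker signal does not show that such cells were present. Of 8 fibroblast markers FAP was not on the array under that name, and DCN, COL3A1, PDGFRB and COL1A2 were well above background on neither array. COL1A1 was seen in SAS only, THY1 gave 2667 and 2556, and LUM was seen in eSAS only, at least 2.40-fold higher at 1 spot that lies in rows 450 to 510. The summed signal of the 7 markers was 2729 in SAS and 2625 in eSAS, most of it from THY1. Of 6 leukocyte markers CD14, CD68 and CSF1R were seen on both arrays and the leukocyte antigen PTPRC on neither, with a sum of 1713 in SAS and 1734 in eSAS, and of 4 neutrophil markers 0 were seen. The summed signal of the 10 squamous markers was 108244 in SAS and 78865 in eSAS. The part of these differences in the MMP1 value was not tested. In bulk RNA, fewer cells that make MMP1 and less MMP1 RNA per cell cannot be told apart.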

How the data were processed

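SAS and eSAS RNA was hybridised to 1 one-colour array each, both on 1 slide. The authors deposited the scanner output of Agilent Feature Extraction 10.7.3.1 (per the submitters' processing notes), in which the processed signal is a linear intensity, background-subtracted and detrended, not scaled between arrays. The software's flags and other marks were used as deposited. The authors' series table equalled the processed signal at 45015 of 45015 spots on both arrays, so it adds no other values.

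The log2 of the signal minus each array's 75th percentile was averaged over spots, leaving out control spots and spots marked non-uniform or as population outliers. A probe counted as well above background where more than 50% of its spots were. Bounds were set after scaling. For lists, the probes of a gene that passed on both arrays were averaged. Of 41000 probes, 23958 were named through their accession in the GRCh38.p14 gene table, 2755 by symbol, 1032 by an older symbol, and 13255 kept the array's name. Probe positions come from the array design (hg18). The members, lists and markers were chosen with earlier results of these data known. Named are all 9 members, list genes at least 2-fold apart, the ends of most ranges and genes of high SAS signal, and the 5 probes nearest to MMP1. Left unnamed as range ends were DYNC2H1 beside the cluster, and ELK1 and ETV4 of the ETS and RUNX factors. RUNX2, FOSL1, YAP1, BIRC3, TIMP1, TIMP3, RECK, WTAPP1 and the marker genes fall outside this rule and were picked with their values known.

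R 4.3.3 with limma 3.58.1 (normexp, offset 50, and quantile normalization) and Python 3.11.15 did the computing, tested on simulated data first. Alternatives were other scalings, background corrections, spots, summaries and filters on dim probes.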

Additional observations from a re-analysis of the deposited data

How the results depend on the processing

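No paired analysis was possible because each population had 1 array. Both arrays share 1 slide, so there was no slide to block on and no array to leave out. Leaving out marked spots had been listed as an alternative and was used for the reported values; keeping them, the normexp fit without spots of marked local background, and the list medians without rows 450 to 510 were chosen after seeing the data. For all values below the cause was not tested.

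MMP1 kept a log2 difference between -4.32 and -4.22 under no scaling, median centring, quantile normalization, the authors' series table, no rows 450 to 510, the median of spots and both limits for dim signals. It was -3.59 with marked spots kept, -2.50 with no background correction, -2.26 under normexp without spots of marked local background and 0.64, reversed, under normexp on all spots, where the bound was under 1 and the value is given without it. Normexp on all spots moved the median of all probes from -0.0039 to 0.53. It gave MMP7 2.25, MMP3 2.88, 0 genes of the cluster at least 2-fold lower and 2 higher, and 11264 probes higher and 183 lower, in place of 520 and 559. Without spots of marked local background normexp gave MMP7 0.37, and 86 probes higher and 156 lower. With no background correction MMP7 was 0.46. Requiring both arrays well above background gave 250 probes higher and 335 lower, and no filter gave 1375 and 1536. The median of the ETS and RUNX factors became 0.027 with no filter, and without rows 450 to 510 that of the AP-1 subunits became -0.0096 and that of the inhibitors -0.25. The other 53 values computed kept their direction and moved by less than the spread between spots or, for counts, stayed within 1.5 times. Dim signals limit MMP3 and the eSAS level of MMP1.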
